A study of Mus musculus with 16 samples.

Results

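The genes of the cytosolic ribosome were taken by name. Every symbol made of Rpl or Rps and a number was kept, with Rplp0, Rplp1, Rplp2 and Rpsa, and the ribosomal S6 kinases and names marked as pseudogenes were left out. The rule used no measured value and found 87 of the 23935 symbols, 52 named for the large subunit and 35 for the small one. Of these, 85 reached 1 TPM, the abundance unit of the deposited table, in at least 4 of the 16 libraries and were tested. Rpl10l was listed at 0 in every library, and Rpl39l was listed at 0.50 TPM in cisplatin library 1 and at 0 elsewhere. Most names stand for a structural protein of the ribosome, with exceptions. Rps19bp1 encodes a protein that binds Rps19, Rpl7l1 is a paralog of Rpl7, Rps4l is annotated in GENCODE as a transcribed processed pseudogene, and Rps27rt is a retrogene copy of Rps27.

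Total RNA of whole kidney from wild-type mice was sequenced in 4 groups of 4 samples. The groups received cisplatin with nicotinamide mononucleotide (NMN), cisplatin with nicotinamide riboside (NR), cisplatin alone, or PBS. Cisplatin is a platinum drug against tumours that injures the kidney, and NMN and NR are precursors of the coenzyme NAD that were given ahead of it. Kidneys were taken 3 days after cisplatin. No source used here gives the strain, sex, age or doses, or states that each sample came from its own animal. The p-values thus refer to the scatter among these 16 samples, part of which may be technical. The question was how cisplatin changed expression in the kidney, and how far each precursor set it apart from cisplatin alone. Values are the authors' TPM, which are scaled by gene length and to a fixed total per library and keep no read depth, so that no counting interval can be given.

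Ribosomal proteins and ribosomal RNA form a small subunit, which reads the mRNA, and a large subunit, which joins amino acids. The proteins are made in near-equal numbers and are needed in every cell, and their mRNAs are among the most abundant of most tissues. In mammals these mRNAs start with a C followed by a stretch of pyrimidines, the 5' terminal oligopyrimidine (TOP) motif, through which the kinase mTOR and the RNA-binding protein Larp1 control their translation and stability.

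The bases around the annotated start sites of 8 genes are shown as examples of long, short and absent pyrimidine runs. They include genes with large changes below (Rpl12, Rpsa and Rpl18) and small ones (Rpl7a and Rpl22l1), the partner Rpl22, and Rps6 and Rpl27a. Each line gives 30 bases before the RefSeq start and the first 20 bases from it, on build GRCm38.p6, and capitals mark a C-starting run of C and T.
Rpl12, chr2:32961682-32961731, plus strand: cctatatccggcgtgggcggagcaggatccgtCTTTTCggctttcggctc
Rpl18, chr7:45718041-45718090, plus strand: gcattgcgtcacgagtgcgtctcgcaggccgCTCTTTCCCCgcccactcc
Rpl27a, chr7:109519165-109519214, plus strand: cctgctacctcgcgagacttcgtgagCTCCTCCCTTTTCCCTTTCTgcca
Rps6, chr4:86857348-86857397, minus strand: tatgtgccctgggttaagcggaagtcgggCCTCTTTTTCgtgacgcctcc
Rpsa, chr9:120127736-120127785, plus strand: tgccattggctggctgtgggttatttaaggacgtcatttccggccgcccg
Rpl7a, chr2:26910777-26910826, plus strand: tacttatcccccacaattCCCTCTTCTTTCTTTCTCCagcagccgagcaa
Rpl22, chr4:152325696-152325745, plus strand: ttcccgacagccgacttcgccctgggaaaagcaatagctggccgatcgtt
Rpl22l1, chr3:28805478-28805527, plus strand: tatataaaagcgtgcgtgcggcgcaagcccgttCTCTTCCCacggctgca

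The run spans 6 bases in Rpl12, 10 in Rpl18 and Rps6, 20 in Rpl27a, 19 in Rpl7a and 8 in Rpl22l1. The windows of Rpsa and Rpl22 hold none at these annotated starts. Of the 87 genes, 66 were in the RefSeq table of start regions. A run of at least 5 bases, read on the gene's own strand and beginning within 20 bases of the start, was found in 49 of them, or 74.2%, and in 47.6% of the 27025 genes of the table. Runs of at least 8 bases stood in 28 of the 66, or 42.4%, against 13.3% of all genes in the table. These letters describe the annotated windows and show no use of a start site in the kidney.

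The ribosomal protein mRNAs took up a far larger share of the kidney transcriptome after cisplatin alone than in the other 3 groups. Their summed TPM was 8.56%, 8.63%, 9.63% and 7.33% of the listed total in the libraries with NMN, and 7.66%, 9.48%, 10.4% and 7.97% in those with NR. It was 16.3%, 16.2%, 17.8% and 15.8% in cisplatin libraries, against 5.76%, 7.03%, 6.37% and 5.87% in PBS libraries. The cisplatin libraries stood apart from all others, and each precursor group lay nearer to PBS than to cisplatin. The group means were 8.54% ± 0.944 with NMN, 8.87% ± 1.28 with NR, 16.5% ± 0.870 with cisplatin and 6.26% ± 0.582 with PBS (SD, n = 4 each). The 2 subunits moved as one: the large-subunit sum was 1.24, 1.23, 1.25 and 1.24 times the small-subunit sum with NMN, NR, cisplatin and PBS.

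**Figure D1:**
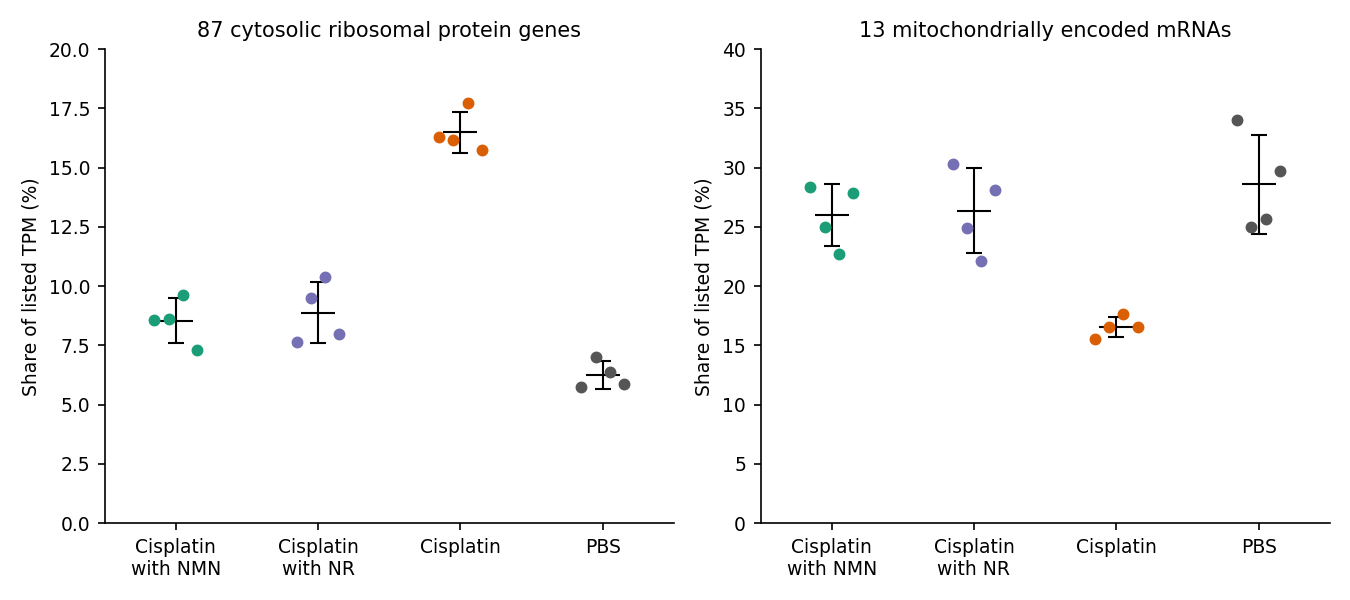
Share of the listed TPM (%) held by 87 cytosolic ribosomal protein genes (left) and by 13 mitochondrially encoded mRNAs (right), with 1 point per library and the group mean ± SD. The 4 cisplatin libraries hold the highest ribosomal protein shares, 15.8% to 17.8%, and the lowest mitochondrial shares, 15.6% to 17.6%.

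Other transcripts moved with the same groups. The 13 mitochondrially encoded mRNAs held 26.0% ± 2.62 of the listed TPM with NMN, 26.4% ± 3.6 with NR, 16.6% ± 0.843 with cisplatin and 28.6% ± 4.18 with PBS. With these genes removed, the ribosomal protein share was 11.5%, 12%, 19.8% and 8.76% in the same order of groups, as the plot of shares by library shows for both sets before removal. All 8 proximal tubule markers (Slc34a1, Slc5a2, Slc22a6, Slc22a8, Lrp2, Cubn, Slc5a12 and Kap) fell with cisplatin against PBS, and none was at 0 in any group. Their summed level ran from 37070 to 44943 TPM with NMN, 31001 to 38182 with NR, 4106 to 6962 with cisplatin and 46646 to 54361 with PBS. Most of this sum was Kap, which averaged 37481 TPM with NMN, 31695 with NR, 5380 with cisplatin and 45826 with PBS. All 5 red blood cell markers fell as well, with sums of 1357 to 2882 TPM with NMN, 1268 to 2603 with NR, 8.20 to 33.9 with cisplatin and 1876 to 3820 with PBS. All 4 markers each of intercalated cells, podocytes, endothelium and fibroblasts fell too, with medians of -1.47, -2.06, -2.0 and -1.36. Of all genes, 18.6% fell and 40.7% rose. Other lists were less uniform. Of 4 thick ascending limb and 3 distal convoluted tubule markers, 2 each fell. Of 4 principal cell markers 1 rose and 2 fell, and of 5 macrophage markers 1 rose and 1 fell. The 2 tested B and plasma cell markers rose, as did 1 of 3 tested proliferating cell markers. No tested neutrophil or T cell marker was called. All 4 adipose markers (Adipoq, Cidec, Plin1 and Fabp4) rose with cisplatin against PBS, with a median of 2.21. Against cisplatin all 4 fell with NMN, with a median of -2.38, and none passed with NR, with a median of -0.96. In NMN against NR none of these markers was called, so no difference between the precursors is shown. Their sums were 24.4 to 61.7 TPM with NMN, 23.1 to 214.7 with NR, 135 to 275 with cisplatin and 24.9 to 71.6 with PBS. In whole kidney, fewer cells of a type and less RNA per cell cannot be told apart, and the part of these shifts in the ribosomal protein result was not tested. With the mitochondrially encoded genes removed and the rest rescaled, the median change of the members with cisplatin against PBS, given next, was 1.21 in place of 1.44.

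Cisplatin alone raised nearly the whole set. Against PBS, 83 of the 85 tested genes rose and none fell, whereas 40.7% of all 12960 tested genes rose and 59.4% changed in either direction (limma on log2(TPM + 1), Benjamini-Hochberg adjusted p under 0.05 over all genes). Only Rpl22l1 and Rpl3l did not pass. The median change was 1.44 on the log2 scale, with a middle range of 1.25 to 1.62 and extremes of -0.15 and 2.08, beside a median of 0.27 over all tested genes. In 83 genes every cisplatin library was above every PBS library, which held for 35.3% of all genes, and 76 changed by at least 2-fold, beside 27.5% of all genes. After median-of-ratios scaling, which centres each library on its typical gene and brought the all-gene median to 0.0017, 83 rose again, with a median of 1.12, while 29.3% of all genes rose in place of 40.7%.

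**Figure D2:**
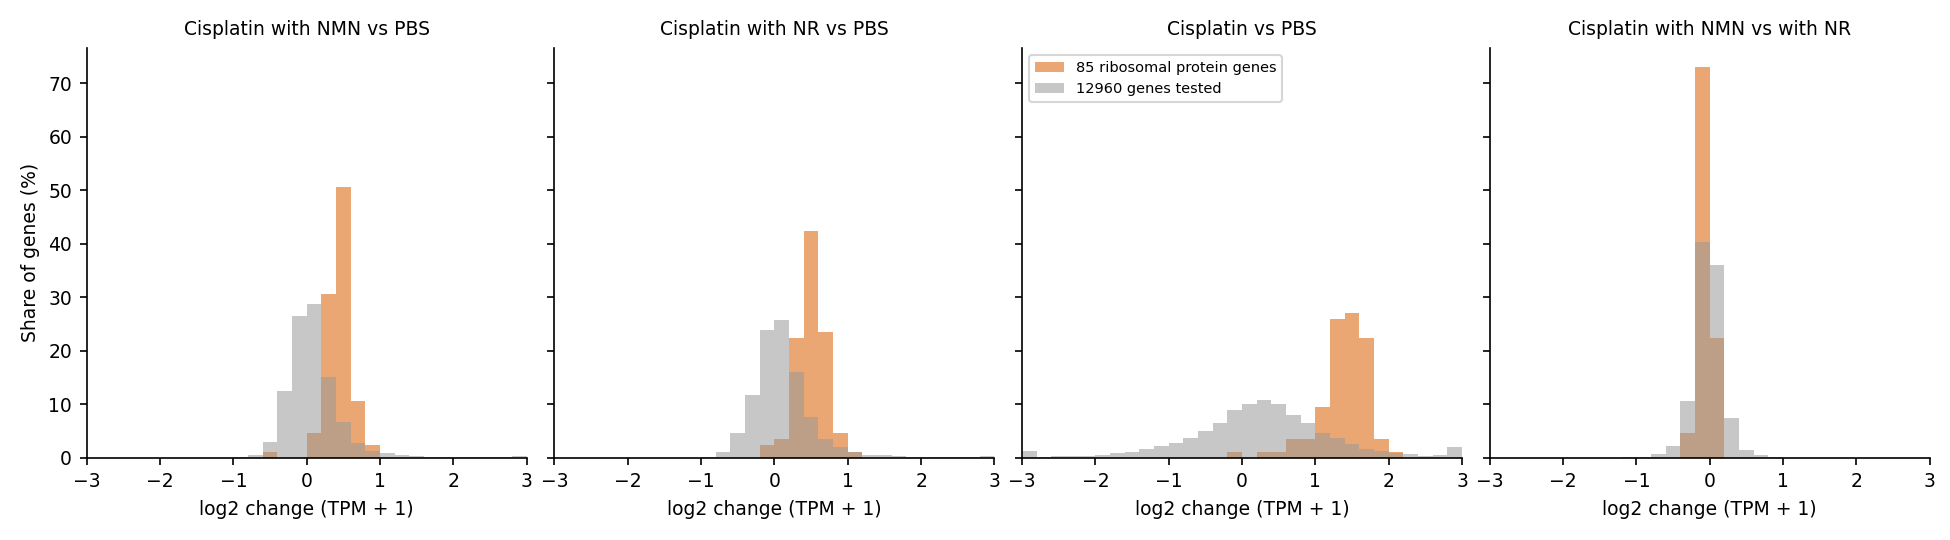
Distribution of the log2 change (TPM + 1) of 85 ribosomal protein genes and of all 12960 tested genes in 4 comparisons, as the share of genes per bin of 0.2, with values beyond 3 placed in the end bins. With cisplatin against PBS the ribosomal protein genes gather around a median of 1.44, to the right of the wide peak of all genes. Between NMN and NR both sets lie around 0.

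The 2 subunits gave like values. All 35 small-subunit genes rose, with a median of 1.45, and 48 of 50 tested large-subunit genes rose, with a median of 1.39. The histogram of members and all genes shows how narrow the set was: 77 of 85 genes lay within 0.5 log2 units of the median member, and the SD over members was 0.36, beside 1.13 over all genes. All genes include many of low TPM, and the part of abundance in this contrast was not tested.

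Rpl12, which forms the base of the stalk that recruits elongation factors, had the largest change in the large subunit. It had 833, 738, 903 and 846 TPM with cisplatin, against 181, 256, 189 and 165 with PBS. The groups were far apart, with a change of 2.08 ± 0.13 (SE, adjusted p = 2.39e-10), or 4.20-fold in mean TPM. Rplp0, the scaffold of the stalk, had 2258, 2084, 2189.5 and 2142 TPM with cisplatin, against 575, 720.0, 693 and 585 with PBS, a change of 1.76 ± 0.10 (adjusted p = 5.53e-11). Rplp1 and Rplp2, the acidic proteins bound to it, averaged 6677 ± 797 and 1850.3 ± 307 TPM with cisplatin and 2052 ± 256 and 617 ± 101 with PBS. All 4 stalk genes rose, between 1.58 and 2.08.

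Rpl5 and Rpl11, which bind the 5S RNA and, outside the ribosome, are known to bind Mdm2, the ligase that degrades p53, rose less than most members. Rpl5 had 354, 381, 356 and 369 TPM with cisplatin, against 156, 168, 177 and 183 with PBS, a change of 1.09 ± 0.10 (adjusted p = 1.98e-08). Rpl11 averaged 1374 ± 21.1 TPM with cisplatin and 571 ± 52.6 with PBS, a change of 1.27 ± 0.10. Neither group overlapped its counterpart. The tunnel through which the new protein leaves is lined in part by Rpl4, Rpl17 and Rpl39, which changed by 1.14, 1.44 and 1.72. The 5 proteins around its exit, Rpl19, Rpl23a, Rpl26, Rpl31 and Rpl35, all rose, by 1.24 to 1.64. Rpl18 had 1789, 1854, 2054 and 1663 TPM with cisplatin, against 406, 555, 551 and 494 with PBS, and was the third highest change of the set at 1.88 ± 0.14.

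In the small subunit, Rpsa, a protein of the mRNA exit side that is also known as a laminin receptor, had 1495, 1342, 1663 and 1638 TPM with cisplatin, against 349, 539, 441 and 338 with PBS. Its change of 1.90 ± 0.13 (adjusted p = 4.78e-10) was second to that of Rpl12. Rps19, the gene most often mutated in Diamond-Blackfan anaemia, an inherited failure of red cell production in humans, averaged 1854 ± 181 TPM with cisplatin and 506 ± 53.1 with PBS. It rose by 1.87 ± 0.15, and Rps20 by 1.79 ± 0.13. All 19 listed genes of that disease rose, between 0.84 and 1.88, beside 83 of the 85 members and 40.7% of all genes.

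Rps6, the classical substrate of the S6 kinases, had 1628, 1480.4, 1468 and 1522 TPM with cisplatin, against 507, 612, 618 and 536 with PBS, a change of 1.43 ± 0.09 (adjusted p = 3.58e-10). Its levels were tightly grouped on both sides. The 4 proteins at mRNA entry and decoding, Rps2, Rps3, Rps15 and Rps23, rose by 1.30 to 1.52, and Rps14, Rps26, Rps28 and Rpsa, on the exit side, by 1.44 to 1.90. Rps27a, which is made as a fusion with ubiquitin, averaged 1570.0 ± 122 TPM with cisplatin and 528 ± 29.3 with PBS and rose by 1.57 ± 0.11. Rpl41, Rpl39, Rpl38 and Rps29, which are among the short proteins of the ribosome, rose by 1.56 to 1.72.

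**Figure D3:**
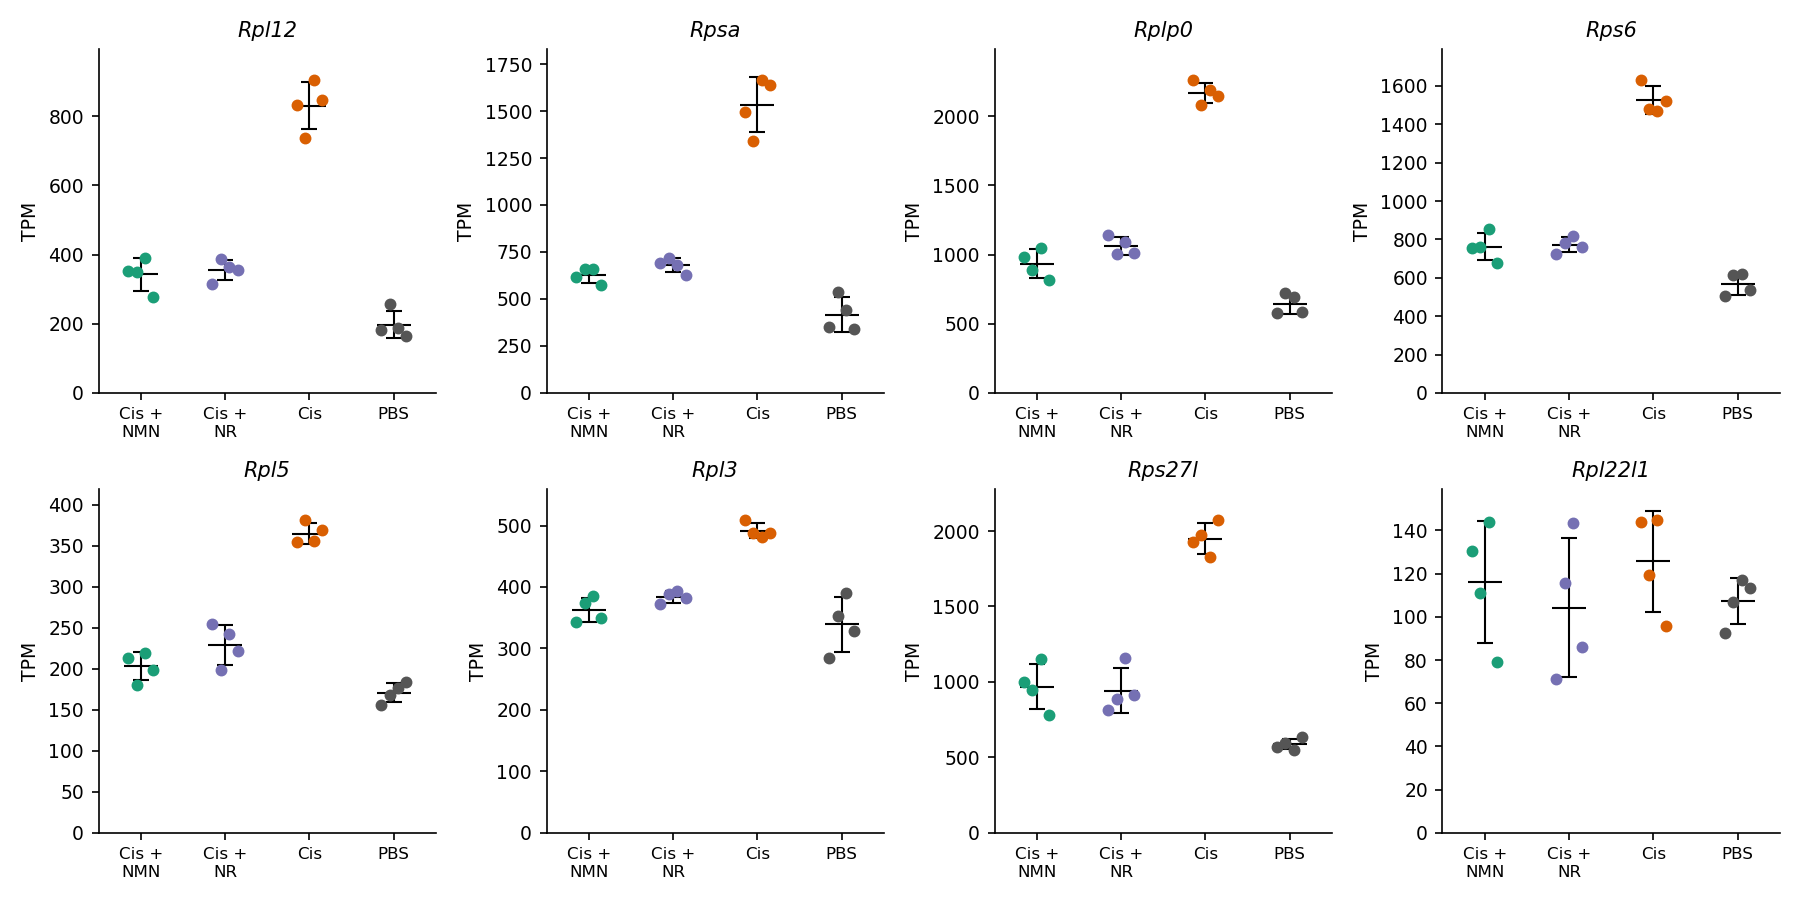
TPM of 8 genes in every library (points) with the group mean ± SD, each on its own linear axis from 0. In Rpl12, Rpsa, Rplp0, Rps6, Rpl5, Rpl3 and Rps27l all 4 cisplatin libraries lie above the other 12, while the 4 groups of Rpl22l1 overlap.

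A few members rose little. Rpl3, a protein near the peptidyl transferase centre and one of the longest of the large subunit, had 508, 489, 481 and 489 TPM with cisplatin, against 284, 353, 390.3 and 328 with PBS, a change of 0.54 ± 0.09 (adjusted p = 5.89e-05). Rpl7a averaged 1084 ± 47.4 TPM with cisplatin and 682 ± 94.4 with PBS and rose by 0.68 ± 0.11. Rpl7l1, Rpl10 and Rpl35a rose by 0.73, 0.78 and 0.84. In each of the 5 the cisplatin libraries were all above the PBS libraries, so that the rise was smaller but not within the spread. The panel of 8 genes by library shows Rpl3 beside the steeper Rpl12 and Rpsa.

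Simple features of the genes followed the size of the change weakly. Across 84 members with a coding model, the change with cisplatin against PBS had a Pearson r of -0.37 and a Spearman rho of -0.23 with coding length. These are correlations across genes of the same libraries, which are not independent replicates, and TPM itself depends on length. With the length of the pyrimidine run the values were 0.05 and 0.08 over 64 members. Of the genes shown above, Rpl27a, with a run of 20 bases, rose by 1.74, Rpl7a, with 19, by 0.68, and Rpsa, with none in its window, by 1.90. The 30 members with a small nucleolar RNA gene inside their span had a median change of 1.46 and the 55 without one 1.40.

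Both NAD precursors were linked with lower ribosomal protein mRNA than cisplatin alone. With NMN, 82 of 85 genes fell against cisplatin and none rose, whereas 34.0% of all genes fell. The median change was -0.97, beside -0.23 over all genes, and in 81 genes the groups did not overlap, beside 30.9% of all genes. With NR, 82 of 85 fell against cisplatin and none rose, whereas 32.2% of all genes fell, with a median of -0.93 beside -0.20, and the groups were apart in 81, beside 29.1%. In both comparisons the genes that did not pass were Rpl3l, Rpl22l1 and Rps27rt. Both use the same 4 cisplatin libraries, so that they are not independent of each other. With median-of-ratios scaling the medians were -0.72 and -0.72, with all-gene medians of -0.0165 and -0.0191, and 3 and 2 members lost their call. Of all genes, 46% and 43.7% were called in either direction at this scaling, in place of 49.1% and 46.6%. The share of all genes that rose was 22.4% and 21.4%, in place of 15.1% and 14.4%, so that fewer of the calls were falls.

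Rpsa, Rpl12 and Rpl18 fell furthest with each precursor. Rpsa had 615, 660.4, 659.9 and 576 TPM with NMN and 693, 720.5, 679 and 630.0 with NR, against 1495, 1342, 1663 and 1638 with cisplatin, changes of -1.29 ± 0.13 and -1.17 ± 0.13. Rpl12 had 352, 351, 391 and 277 TPM with NMN and 315, 386, 364 and 355 with NR, against 833, 738, 903 and 846 with cisplatin, changes of -1.28 ± 0.13 and -1.22 ± 0.13. For these genes the precursor libraries were all below the cisplatin libraries by a wide margin. The cisplatin libraries here are those that also set the rise against PBS, so the 2 results are not independent.

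All 4 stalk genes fell with each precursor, with changes of -1.28 to -1.11 with NMN and -1.22 to -0.97 with NR. Rplp0 had 984, 886, 1049.9 and 819 TPM with NMN and 1142, 1002, 1088 and 1009.9 with NR, against 2258, 2084, 2189.5 and 2142 with cisplatin. Rpl5 averaged 203 ± 17.2 TPM with NMN, 229 ± 24.4 with NR and 365 ± 12.6 with cisplatin, with changes of -0.85 ± 0.10 and -0.67 ± 0.10. All 19 Diamond-Blackfan anaemia genes fell with each precursor, beside 82 of the 85 members and 34.0% and 32.2% of all genes. Rpl35a lost its call with NMN under median-of-ratios scaling, with a change of -0.30 there in place of -0.54. Rps6 averaged 762 ± 71.5 TPM with NMN, 772 ± 39.5 with NR and 1525 ± 72.9 with cisplatin, changes of -1.0 ± 0.09 and -0.98 ± 0.09. Rpl3, which had risen little, fell little as well, with changes of -0.44 ± 0.09 with NMN and -0.35 ± 0.09 with NR. Its call with NR was lost under median-of-ratios scaling (adjusted p = 0.111). Rpl7l1 changed by -0.52 and -0.53 with overlapping groups, and its calls were lost when cisplatin library 1 or 4 was left out, among other settings.

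In the precursor groups a part of the set was above the PBS level. No group received a precursor without cisplatin, so effects of cisplatin and of the precursor itself cannot be told apart here. With NMN, 41 of 85 genes were above PBS and none below, beside 5.89% of all genes above PBS, with a median of 0.45 over members and 0.04 over all genes. With NR, 63 were above PBS and none below, beside 8.79% of all genes, with medians of 0.49 and 0.06. The groups were apart in 47 members with NMN, beside 8.77% of all genes, and in 53 with NR, beside 11.8%. Both comparisons use the same PBS libraries. That more genes passed with NR does not show a difference between the precursors, which was tested directly below.

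These counts depended on single libraries. The NMN count was 23 without PBS library 1 and 21 without NMN library 3, while 4.17% and 3.90% of all genes were above PBS at these settings, in place of 5.89%. The NR count was 41 without PBS library 1, 41 without PBS library 4 and 40 without NR library 3, with 6.30%, 7.08% and 7.04% of all genes in place of 8.79%. NMN library 3 and NR library 3 had the highest ribosomal protein shares of their groups and the lowest mitochondrial shares, 22.7% and 22.1%. Under every alternative run, 15 genes stayed above PBS with NMN and 30 with NR. Rpl12, Rpsa, Rplp0, Rps6, Rps19, Rps20, Rpl15, Rpl27a, Rpl39 and Rps27l were among both.

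Rps27rt, a low gene treated below, had the largest change against PBS with each precursor. It was 0.99 with NMN, without a call, and 1.12 with NR, with a call. Rps28 came second with NR, at 0.86. Rpl12 was 0.80 ± 0.13 above PBS with NMN and 0.86 ± 0.13 above it with NR (adjusted p = 0.00053 and 0.00018). It had 277 to 391 TPM with NMN, 315 to 386 with NR and 165 to 256 with PBS. The ranges did not touch. Rplp0 was above PBS by 0.54 ± 0.10 with NMN and 0.73 ± 0.10 with NR. Rps6 was above it by 0.42 ± 0.09 and 0.45 ± 0.09. Of the disease genes, 8 of 19 were above PBS with NMN and 14 of 19 with NR. This stands beside 41 and 63 of the 85 members, and 5.89% and 8.79% of all genes. For Rpl3 and Rpl7a the differences from PBS were 0.10 and 0.18 with NMN and 0.19 and 0.19 with NR, with overlapping groups and no call.

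**Figure D4:**
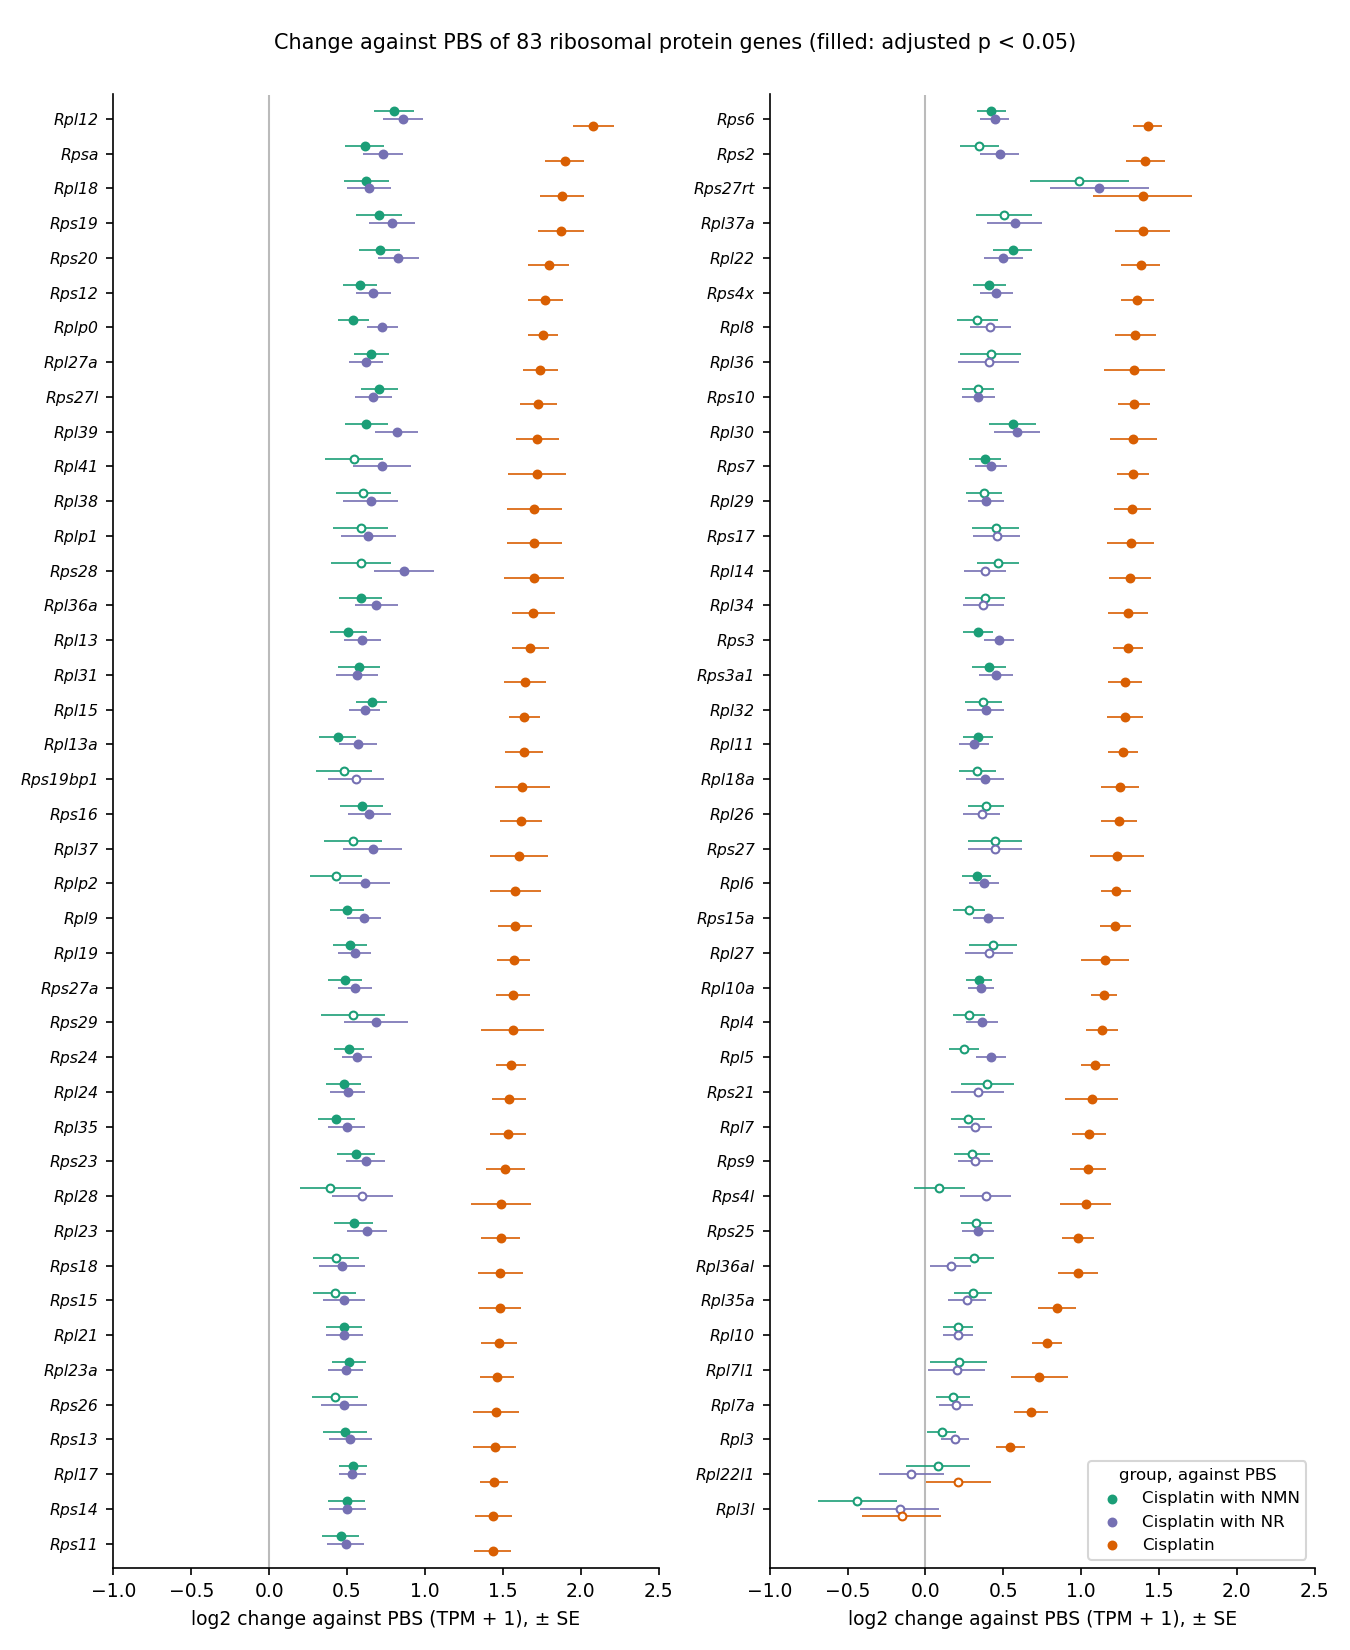
Log2 change (TPM + 1) ± SE of 83 of the 85 tested ribosomal protein genes against PBS with cisplatin and NMN, cisplatin and NR, and cisplatin alone, in order of the last; filled points have an adjusted p under 0.05. Most precursor points lie between 0.2 and 0.9, left of the cisplatin points around 1.44.

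NMN and NR, which differ in that NMN carries a phosphate group on the riboside, gave no separable values here. In NMN against NR, limma called none of the 85 genes, none had an unadjusted p under 0.05, and 0% of all genes were called, with 370 of 12960 at an unadjusted p under 0.05. The median difference was -0.05, with a range of -0.30 to 0.17. All 85 confidence intervals of the difference lay within 1 log2 unit either way. The lowest lower end of any was -0.80 and the highest upper end of any was 0.61. Differences inside these intervals cannot be told from 0 here. Only Rps4l had groups that did not overlap, with 24.3, 26.2, 26.4 and 20.7 TPM with NMN, against 32.9, 31.1, 27.0 and 29.7 with NR, a difference of -0.30 ± 0.16 (adjusted p = 1), beside 0.995% of all genes that were apart in this direction. The plot of changes against PBS shows the 2 precursors side by side for each gene.

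Several ribosomal proteins have paralogs, and the ratio of each to its partner was compared between groups. Rpl22l1 can take the place of Rpl22 in the ribosome, and in mouse Rpl22 is known to hold its level down. It had 130.5, 111, 144 and 79.1 TPM with NMN and 71.0, 116, 144 and 86.2 with NR. It had 144, 119, 145 and 95.5 TPM with cisplatin, against 92.7, 107, 117 and 113 with PBS. The 4 groups overlapped, and the change of 0.21 ± 0.21 with cisplatin against PBS (adjusted p = 0.4), which turned to -0.10 under median-of-ratios scaling, was no call. Rpl22 itself averaged 720.5 ± 90.2 TPM with NMN, 693 ± 113 with NR, 1272 ± 132 with cisplatin and 487 ± 45.4 with PBS and rose by 1.38 ± 0.13 with cisplatin.

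The log2 ratio of Rpl22l1 to Rpl22 was -3.34 ± 0.183 with cisplatin, against -2.17 ± 0.146 with PBS, a difference of -1.17 with no overlap. With NMN it was -2.65 ± 0.224 and with NR -2.76 ± 0.218, 0.69 and 0.58 above cisplatin and again apart from it. Each had an exact two-sided permutation p of 0.0286, the smallest that 4 against 4 libraries allow. Adjusted over the 24 tests of 6 pairs in 4 comparisons the values were 0.114, so no ratio passed. At this group size and number of tests, full separation in only a few comparisons cannot pass. The lack of a call therefore does not show that a ratio stayed the same, which holds for all 6 pairs. The coding sequences of the pair are 70.2% identical.

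**Figure D5:**
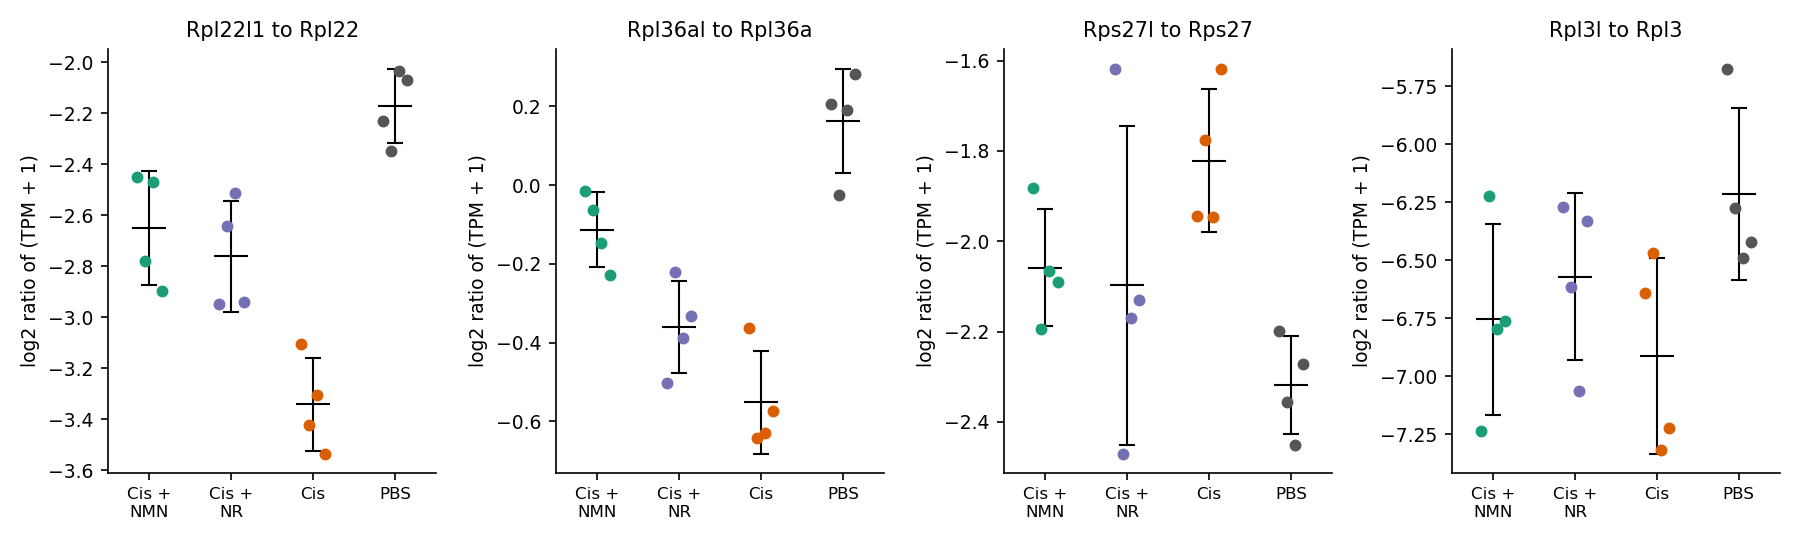
Log2 ratio of (TPM + 1) of 4 paralogs to their partner in every library (points), with the group mean ± SD. The cisplatin libraries have the lowest Rpl22l1 to Rpl22 ratios, -3.53 to -3.11, and the PBS libraries the highest, -2.35 to -2.03.

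Rps27l, which in human cells is known as a target of p53, went the other way. It had 999.6, 946, 1149.7 and 782 TPM with NMN and 814, 884, 1159 and 913 with NR. It had 1927, 1976, 1827 and 2071 TPM with cisplatin, against 571, 598, 551 and 634 with PBS. All cisplatin libraries were above all others, and the change of 1.73 ± 0.12 exceeded that of Rps27, 1.23 ± 0.17. The log2 ratio of Rps27l to Rps27 was -1.82 ± 0.157 with cisplatin and -2.32 ± 0.108 with PBS, a difference of 0.50 (exact permutation p = 0.0286, adjusted p = 0.114). With NMN and NR it was -2.06 ± 0.130 and -2.10 ± 0.353, overlapping cisplatin. The pair of paralogs is 75% identical in coding sequence.

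Rpl36al, a copy of Rpl36a without introns, rose by 0.98 ± 0.13 with cisplatin against PBS, and Rpl36a by 1.70 ± 0.14. The log2 ratio of the copy to Rpl36a was -0.55 ± 0.130 with cisplatin and 0.16 ± 0.133 with PBS, without overlap (exact permutation p = 0.0286, adjusted p = 0.114). The paralog plot shows this ratio in each library. Rpl3l, the form of Rpl3 found in muscle, stayed between 1.28 and 4.59 TPM over all 16 libraries and was not called in any comparison. The muscle markers Acta1, Ckm, Myh2 and Tnnt3 summed to at most 2.78 TPM in any library. Rps4l averaged 24.4 ± 2.64 TPM with NMN, 30.2 ± 2.47 with NR, 48.2 ± 8.86 with cisplatin and 23.3 ± 6.17 with PBS and rose by 1.03 ± 0.16 with cisplatin.

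Rps27rt is an example of a copy whose reads may be hard to tell from those of its partner, which was not tested. Its coding sequence of 252 bases is 100% identical to that of Rps27, and the retrogene also holds part of the bases in front of it. The windows around both annotated starts, 50 bases each on GRCm38.p6, share the 19 bases in capitals.
Rps27rt, chr9:114982720-114982769, minus strand: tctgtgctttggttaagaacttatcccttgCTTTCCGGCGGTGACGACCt
Rps27, chr3:90213629-90213678, minus strand: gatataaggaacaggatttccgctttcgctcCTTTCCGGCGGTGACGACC

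Rps27rt had 21.1, 21.5, 28.1 and 21.6 TPM with NMN and 12.7, 31.6, 46.4 and 21.2 with NR. It had 28.6, 25.1, 56.5 and 21.8 TPM with cisplatin, against 13.9, 10.6, 8.35 and 12 with PBS. It rose by 1.40 ± 0.32 with cisplatin, and cisplatin library 3 and NR library 3 were highest in their groups. Rps27 averaged 4043 ± 659.5 TPM with NMN, 4157 ± 1219 with NR, 6899 ± 446 with cisplatin and 2943 ± 214 with PBS and was the most abundant member in both of the last groups. How reads shared by both genes were counted is not given in the sources used. Many ribosomal protein genes have near-identical processed copies, so that the split of reads among them is uncertain throughout.

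Genes tied to ribosomal proteins were followed in the same comparisons. Fau, whose product is processed to a small-subunit protein, rose by 1.15 ± 0.14 with cisplatin against PBS and changed by -0.80 ± 0.14 with NMN and -0.76 ± 0.14 with NR against cisplatin. Rack1, a scaffold protein on the small subunit, rose by 1.38 ± 0.10 and changed by -0.97 ± 0.10 and -1.0 ± 0.10 in the same comparisons. All of these passed the test. Of 22 other genes whose mRNAs are known to begin with a pyrimidine tract, 19 rose with cisplatin against PBS, beside 40.7% of all genes. Their median was 0.69, with a range of -0.10 to 2.4. Against cisplatin, 19 fell with NMN and 19 with NR, beside 34.0% and 32.2% of all genes. Pabpc1, the poly(A)-binding protein, averaged 344 ± 47.4 TPM with cisplatin and 116 ± 8.83 with PBS, and Eef1g, a subunit of elongation factor 1, averaged 396 ± 29.1 TPM with cisplatin and 147 ± 23.2 with PBS. Eef2, which drives translocation, did not pass, with 644 ± 52.5 TPM with cisplatin and 612 ± 58.7 with PBS, nor did Eif4b and Ybx1.

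Of 19 tested regulators of these mRNAs, 10 rose and 2 fell with cisplatin against PBS, beside 40.7% of all genes that rose and 18.6% that fell, so the count is near the background. Eif4ebp1, a repressor of cap-dependent translation that mTOR switches off, averaged 96.6 ± 17.1 TPM with cisplatin and 6.20 ± 1.77 with PBS. Eif4ebp2, of the same family, went the other way, with 28.35 ± 2.52 TPM with cisplatin and 41.6 ± 3.66 with PBS. Sesn2 and Ddit4, both inhibitors upstream of mTOR complex 1, rose by 2.04 and 1.95. Mtor fell by 0.69, and Larp1 rose by 0.31. Akt1 and Rheb, on the activating side of the same complex, were also higher with cisplatin than with PBS. Akt1 averaged 75.5 ± 9.14 TPM with cisplatin and 29.7 ± 3.42 with PBS, and Rheb 60.3 ± 9.92 and 42.3 ± 5.55. Rptor, a part of the complex, averaged 5.17 ± 0.928 and 6.20 ± 1.09. The list thus held changes on both sides, and mTOR activity was not tested. Of 14 escorts and importers of new ribosomal proteins, 9 rose, beside the same 40.7% of all genes, among them Nap1l1, which is also one of the 22 genes above, Grwd1, which escorts Rpl3, and Ipo7, by 1.55, 1.39 and 1.11. Mdm2 averaged 52.5 ± 11.4 TPM with NMN, 62.3 ± 10.3 with NR, 179 ± 24.2 with cisplatin and 20.3 ± 0.873 with PBS. Trp53, which encodes p53, and its target Cdkn1a also rose with cisplatin and fell with each precursor against cisplatin.

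Proteins of the mitochondrial ribosome, which come from a separate gene set, moved less evenly. Of 78, 38 rose and 7 fell with cisplatin against PBS, beside 40.7% and 18.6% of all genes, and their median of 0.33 was near that of all genes, 0.27. With NMN 25 fell and 6 rose against cisplatin, beside 34.0% and 15.1% of all genes. With NR 35 fell and 3 rose, beside 32.2% and 14.4%. Against PBS, 2 of the 78 were above with NMN and 3 with NR, beside 5.89% and 8.79% of all genes. Of the 85 cytosolic members, 41 and 63 were above. Whether the cytosolic set differs from the mitochondrial one was not tested.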

How the data were processed

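RNA of 16 whole-kidney samples, 4 per group, was analysed from 1 table of TPM that the authors deposited, with totals of 860428 to 903678 over the listed genes. Per the submitters' processing notes the tools included DESeq2 1.10.1, HTSeq 0.6.1, STAR 2.4.1d and Trim Galore, with builds GRCm38 and mm10. No source used here gives their roles, the strand setting, the annotation or the gene lengths behind the deposited TPM. TPM keep no read depth, so precision was judged from the spread between libraries. The 23982 entries were summed to 23935 symbols. The 12960 genes that reached 1 TPM in 4 or more libraries were tested as log2(TPM + 1), a scale that understates changes of low genes, in 1 model of 4 group means with limma 3.58.1 (trend and robust variance, statmod 1.5.0, R 4.3.3), adjusted by Benjamini-Hochberg over all genes, with calls at 0.05. Paralog ratios were compared with exact permutation tests (scipy 1.17.1). Gene models came from GENCODE vM21 and start regions from RefSeq. The fit was tested on simulated data. Other scalings, filters, pseudocounts and variance models and leaving out each library were tried. Genes named are the 5 largest and 5 smallest changes per comparison, the paralogs and partners, set roles, and genes of set lists. The members and lists were chosen with earlier results of these data known. The main fit did not use the replicate numbers, and whether they pair the libraries is not given in the sources used. Values of a few single genes are not reported here, though the genes remain in the fit and the counts, except in the counts of libraries that stand apart.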

Additional observations from a re-analysis of the deposited data

Results flagged for a closer look

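In 21 of 333 gene and group sets of 4 libraries, or 6.31%, 1 library lay apart from the other 3 by Dixon's 95% criterion; chance gives about 1 in 20. With NMN, library 3 was high for Rpl38 (2365 TPM, others 1798 to 1868), Rpl39 (326, others 229 to 245), Rps27rt (28.1, others 21.1 to 21.6) and Rps28 (1486, others 1009 to 1067). With cisplatin, library 3 was high for Rpl28 (1505, others 881 to 979), Rpl35 (809, others 702 to 720.2), Rplp2 (2306, others 1662 to 1767) and Rps29 (3491, others 2593 to 2718). Cisplatin library 1 was low for Rpl35a (1309, others 1467.5 to 1488), high for Rps4x (1217, others 1083 to 1105) and the sole one with Rpl39l (0.50, others 0). Cisplatin library 4 was low for Rpl36 (3602, others 4315 to 4436) and Rpl8 (1605, others 1792 to 1808). With PBS, library 2 was high for Rpl36a (538, others 378 to 400.2), Rpl37 (225, others 159 to 167), Rps16 (645, others 443 to 449), Rps20 (256, others 172 to 173), Rps28 (991, others 656 to 709) and Rps29 (1289.5, others 828 to 904). PBS library 3 was high for Rpl34 (1045, others 899.9 to 924) and library 1 low for Rps27 (2624, others 3017 to 3065).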

How the results depend on the processing

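Over 25 alternative settings, 10045 of 10620 alternative values of 425 member changes kept their direction and side of the threshold, 438 lost the call, 117 gained one and 20 turned. The members called were 83 with cisplatin against PBS under every setting, and 79 with NMN and 79 with NR against cisplatin were called under all of them. The median change was 1.12 with median-of-ratios scaling and 1.21 without mitochondrially encoded genes for cisplatin against PBS, -0.72 and -0.79 for NMN against cisplatin, and -0.72 and -0.75 for NR against cisplatin. Leaving out 1 library gave medians of 1.39 to 1.5, -1.03 to -0.91 and -1.01 to -0.87. Counts against PBS were less steady. For NMN 16 genes were called without PBS 1, cisplatin 1 and cisplatin 3 and 21 to 53 with 1 library left out; for NR 38 were called with median-of-ratios scaling, 35 without those 3 libraries and 40 to 69 with 1 left out. Medians with 1 left out were 0.40 to 0.52 for NMN and 0.41 to 0.57 for NR against PBS, and -0.11 to 0.03 for NMN against NR. The replicate block gave 60 genes with NMN and 73 with NR against PBS and 83, 82, 82 and 0 in the other comparisons. Same-numbered libraries of different groups correlated between -0.13 and 0.287 after group means were taken out. Their median was 0.0678, beside -0.0142 for different numbers. Such low correlations cannot settle whether the numbers pair the libraries. Values that turned belonged to uncalled results. For Rpl22l1 they were -0.102, -0.0135 and -0.0729 with cisplatin against PBS (median-of-ratios, no mitochondrial genes, without the 3 libraries) and 0.111, 0.0416 and 0.0851 with NMN against cisplatin under the same settings. For Rpl3l they were 0.00467 with cisplatin against PBS without the 3 libraries, and 0.149 and 0.134 with NR against cisplatin (median-of-ratios, no mitochondrial genes). Without the 3 libraries Rps27rt gave 0.0998 with NR against cisplatin and Rps4l gave -0.0343 with NMN against PBS. With 1 library left out, Rpl22l1 ran from -0.255 to 0.0409 with NMN against cisplatin, -0.0335 to 0.252 with NMN against PBS and -0.261 to 0.0745 with NR against PBS; Rpl3l ran from -0.159 to 0.140 and Rps27rt from -0.565 to 0.0339 with NR against cisplatin, and Rps4l from -0.0343 to 0.247 with NMN against PBS. The log2 ratio of Rps4l to Rps4x was -0.015 with NMN against cisplatin at a pseudocount of 0.1. The cause was not tested for any of these.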
